A study of Mus musculus with 24 samples.

Results

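The transcripts followed here encode the transcription factor NRF2, its inhibitor, and antioxidant enzymes and a cystine transporter, most of which NRF2 is known to govern. They are those of 10 genes: Nfe2l2, Keap1, Nqo1, Gclc, Gclm, Hmox1, Txnrd1, Srxn1, Slc7a11 and Sod2. They were found as all probes whose accession on the array maps to 1 of these symbols, which gave 15 of 41174 non-control probes and 10 of 17928 named genes with a usable probe. RNA of livers from male C57BL/6N mice was labelled with Cy5 and compared on 24 Agilent 2-colour arrays with a common Cy3 reference, so a log2 Cy5/Cy3 of 0 means a signal equal to that of the reference. E10d1B mice (n = 3) received ethanol for 10 days and then 1 binge, and their pair-fed controls without ethanol were P10d (n = 3). E8wMB mice (n = 4) received ethanol for 8 weeks with binges 2 times per week, E8w1B mice (n = 5) 8 weeks with 1 binge, and E8w mice (n = 5) 8 weeks with no binge. P8w mice (n = 4) were pair-fed for 8 weeks. A binge was 5 g of ethanol per kg. Nothing in the labels says that the arrays of a group hold separate animals, so p-values measure the spread between these samples, and their number limits the precision.

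NRF2, encoded by Nfe2l2, is held at a low level by KEAP1, which presents it for ubiquitination and degradation; oxidants and electrophiles modify KEAP1 and let NRF2 build up in the nucleus. There it pairs with a small MAF protein on antioxidant response elements and raises genes that make glutathione, reduce thioredoxin and peroxiredoxins, and inactivate quinones and heme. In liver the pathway is known for protection against reactive metabolites, and ethanol oxidation by CYP2E1 is a known source of oxidants there. NRF2 is controlled mainly as a protein, which RNA arrays do not measure.

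The core of an antioxidant response element is TGACNNNGC, and a common variant is TGAGNNNGC. The 250 bases before the annotated transcription start (RefSeq, GRCm38.p6) were searched for both spellings on both strands, and a base can begin only 1 of the 2 spellings. Entries were found for 8 of the 10 genes, with 10 starts; Gclc and Hmox1 are named only. Of all 32851 such windows, 10.2% held TGACNNNGC, 14.4% held TGAGNNNGC and 23% held either. A match was present at 5 of the 10 starts, those of Nfe2l2, Gclm, Srxn1, Slc7a11 and the second of 3 Txnrd1 starts. The windows of Keap1, Nqo1 and Sod2 held neither spelling. Of these, Keap1 and Nqo1 had transcripts that changed between feeding groups. The windows of 3 genes that changed and that held a match are shown 5′ to 3′ on the strand of the gene, with the matches in capitals. They are Srxn1 (chr2:152105274-152105523, + strand), Txnrd1 at its second start (chr10:82858956-82859205, + strand) and Gclm (chr3:122245307-122245556, + strand). The match is a description of letters and not evidence of a bound site.
Srxn1: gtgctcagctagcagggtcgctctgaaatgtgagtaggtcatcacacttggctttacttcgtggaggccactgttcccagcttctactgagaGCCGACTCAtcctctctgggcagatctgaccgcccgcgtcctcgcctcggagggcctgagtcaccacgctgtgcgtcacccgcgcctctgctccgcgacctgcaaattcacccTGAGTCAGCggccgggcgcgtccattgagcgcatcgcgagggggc
Txnrd1: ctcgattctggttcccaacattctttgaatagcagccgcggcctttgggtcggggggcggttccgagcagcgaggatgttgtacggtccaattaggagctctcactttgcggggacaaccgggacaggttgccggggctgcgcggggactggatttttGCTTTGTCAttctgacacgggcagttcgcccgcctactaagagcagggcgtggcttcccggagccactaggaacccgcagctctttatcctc
Gclm: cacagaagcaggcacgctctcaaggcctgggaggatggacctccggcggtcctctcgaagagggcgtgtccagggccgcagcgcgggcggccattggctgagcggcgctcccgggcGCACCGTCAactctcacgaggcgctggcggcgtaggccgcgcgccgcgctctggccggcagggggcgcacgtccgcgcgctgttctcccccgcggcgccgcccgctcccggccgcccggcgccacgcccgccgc
In Srxn1 both matches are of the TGAGNNNGC kind, 158 to 150 bases before the start on the opposite strand and 45 to 37 bases before it on the strand of the gene. In Txnrd1 and Gclm the match is TGACNNNGC on the opposite strand, 92 to 84 and 134 to 126 bases before the start.

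The 3 scan sessions did not mix all groups. Scan 1 held P8w, E8w and E8w1B, with arrays of all 3 groups placed together on slides, scan 2 held P10d and E10d1B, and scan 3 held E8wMB alone on another scanner. The Cy3 signal of the common reference correlated across genes, which are not independent replicates, at a median r of 0.983 for pairs of scan 1 arrays and of 0.911 for pairs from scans 1 and 3. In Cy3 alone 49.2% of all genes passed the test between E8wMB and P8w. The multiple binges and the scan session therefore cannot be told apart, and the Cy5 and Cy3 values alone are given for that group beside the ratios that passed. Of the hepatocyte markers, all 7 measured were well above background on all 24 arrays. In Cy5, 12 of the 15 probes stood well above background on 23 or 24 arrays, and the 3 Slc7a11 probes did not. Spots that the scanner software marked as non-uniform or as outliers were left out, which for the bright probes of Gclc, Gclm, Txnrd1, Srxn1 and Sod2 removed 4 to 11 arrays; values with those spots kept are given where they bear on a result.

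The first question is which feeding scheme changed these transcripts, tested with limma on log2 Cy5/Cy3 over all genes with Benjamini-Hochberg adjustment, and a gene counts as changed at an adjusted p under 0.05. The members that changed were few and did not move as a block: Txnrd1 was higher after a single binge at either duration, Nqo1 was higher than in P8w after 8 weeks with 1 or with multiple binges, and Gclm was lower after 8 weeks with 1 binge. Srxn1 rose against P8w in E8wMB, and in E8w1B by 2 of its 3 probes. In E10d1B against P10d, 1 of 9 members tested rose and 0 fell, where 6.91% of all genes changed. In E8w1B against P8w 2 rose and 1 fell of 9, where 15.4% of all genes changed, and the median of the members was 0.08 against 0.02 over all genes (log2 fold change). In E8w1B against E8w 1 rose and 2 fell of 10 (all genes 15.5%). In E8wMB 2 of 6 rose against P8w (all genes 20.8%), 1 of 7 rose against E8w (all genes 25.5%) and 2 of 7 rose against E8w1B (all genes 30%). In E8w against P8w 0 of 9 passed in limma, 0 of them had an unadjusted p under 0.05, and 0.138% of all genes changed. Slc7a11 is counted among the members tested although its signal was at background. These comparisons share control arrays, so their counts are not independent of each other.

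**Figure D1:**
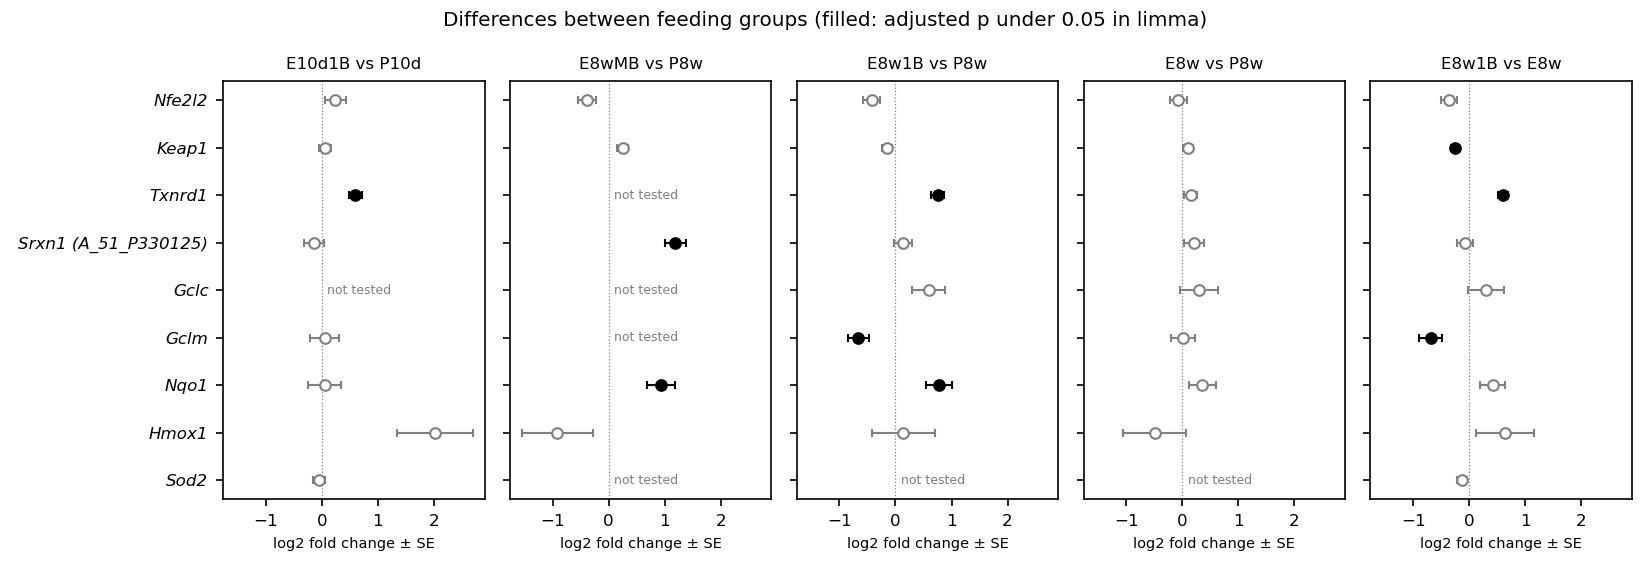
Log2 fold changes of Cy5/Cy3 (x axis, ± SE) for 9 genes (rows) in 5 comparisons (panels); filled circles have an adjusted p under 0.05 in limma over all genes. Txnrd1 is filled in each comparison of a single-binge group shown, and no circle is filled in E8w vs P8w.

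Nfe2l2, the NRF2 gene itself, did not pass in any of the 8 comparisons made, though it did in some with other settings. Its brighter probe read -0.04, -0.24, -0.12 and -0.30 (log2 Cy5/Cy3) in E8wMB, -0.80, -0.14, -0.06, 0.18 and -0.25 in E8w1B, 0.34, 0.12, 0.25, -0.12 and 0.11 in E8w, and 0.39, 0.04, 0.21 and 0.20 in P8w. The E8wMB arrays all lay below the P8w arrays, while E8w1B overlapped both E8w and P8w. The difference was -0.43 ± 0.15 (log2 fold change ± SE, adjusted p = 0.0559) in E8w1B against P8w and -0.39 ± 0.16 (adjusted p = 0.0836) in E8wMB against P8w. Without E8w1B replicate 4 the first was -0.53 and passed (adjusted p = 0.015), and so did the difference from E8w, at -0.45 (adjusted p = 0.0271). Nfe2l2 was lower in E8w1B than in P8w on all 4 slides they shared, with differences of -0.45 to -0.18, and with slide as a random block the difference was -0.42 and passed (adjusted p = 0.0494). In E8wMB it was called lower than in P8w with median centring (-0.60, adjusted p = 0.0458) and with only the groups compared (-0.39, adjusted p = 0.0204), and with only the groups compared also lower than in E8w (-0.31, adjusted p = 0.0358). In E8wMB the Cy5 signal alone was higher than in P8w by 1.05 and the Cy3 signal by 1.43, so the sign of the ratio and that of Cy5 alone were opposite. In E10d1B the probe read 0.50, 0.38 and -0.04, against -0.06, -0.13 and 0.30 in P10d, a difference of 0.24 ± 0.18 (adjusted p = 0.533). The second Nfe2l2 probe gave -0.41 ± 0.17 in E8w1B against P8w (adjusted p = 0.126 over all probes).

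Keap1, the adaptor that delivers NRF2 to the CUL3 ubiquitin ligase, was a little lower in E8w1B than in E8w. It read -0.40, -0.29, -0.45, -0.16 and -0.16 in E8w1B and -0.09, -0.04, -0.09, 0.08 and -0.07 in E8w (log2 Cy5/Cy3). The 2 groups did not overlap, and Keap1 was lower on all 5 slides that held them. The fall was -0.25 ± 0.08 (adjusted p = 0.0294), and its adjusted p was over 0.05 without E8w1B replicate 1 or 3 or E8w replicate 2 or 4 (0.0549 to 0.0893), 0.0553 when slide was fitted as a fixed block, 0.0681 with only the groups compared, 0.203 in Cy5 alone and 0.6 with median centring. In E8wMB Keap1 read 0.02, 0.12, 0.13 and 0.14, all above the E8w1B arrays, a rise of 0.40 ± 0.08 (adjusted p = 0.00126) across the 2 scan sessions. There the Cy3 signal of Keap1 differed by 0.02 and the Cy5 signal by 0.40, which did not pass (adjusted p = 0.103). With median centring the ratio differed by 0.15 and did not pass either (adjusted p = 0.477). P8w spanned -0.33 to 0.06 on 3 arrays, and the E8w1B difference from it was -0.15 ± 0.09 (adjusted p = 0.334).

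Txnrd1, which encodes the cytosolic thioredoxin reductase that uses NADPH to keep thioredoxin reduced, rose in both single-binge groups. At 10 days it read 0.19, 0.15 and 0.15 in E10d1B, against -0.48, -0.37 and -0.45 in P10d (log2 Cy5/Cy3). The groups did not overlap and differed by 0.60 ± 0.11 (adjusted p = 0.00309, 1.52-fold), and Txnrd1 was higher on both slides that held the 2 groups. Its adjusted p was 0.0671 when slide was fitted as a fixed block and 0.083 in the deposited values, at a difference of 0.56 in both, and 0.225 with median centring, at 0.55. At 8 weeks it read 0.19, 0.15, -0.09, 0.10 and 0.46 in E8w1B. The unmarked E8w arrays read -0.50, -0.31, -0.52 and -0.43, and the unmarked P8w arrays -0.66 and -0.52. Every E8w1B array lay above every array of these controls, and the marked spots, at -0.11 in E8w and at -0.12 and -0.45 in P8w, lay below them too.

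The rise in E8w1B was 0.60 ± 0.09 against E8w (adjusted p = 0.000222) and 0.76 ± 0.12 against P8w (adjusted p = 0.000235, n = 5 and 2 arrays), and 0.60 ± 0.13 against P8w (adjusted p = 0.00224) with marked spots kept. Txnrd1 was higher on all 5 and all 4 slides that held the groups, marked spots kept. The 8-week difference (E8w1B against P8w) minus the 10-day difference (E10d1B against P10d) was 0.16 ± 0.16 (adjusted p = 0.708, 95% interval -0.19 to 0.50). Each of these differences holds ethanol feeding and the binge together, since no 10-day group had ethanol without a binge. Without a binge, E8w differed from P8w by 0.15 ± 0.12 (adjusted p = 0.915). In E8wMB 1 array was unmarked, at 0.36, and the marked spots of the other 3 read 0.27, -0.28 and -0.23. With those kept Txnrd1 was higher in E8wMB by 0.47 ± 0.14 than in P8w (adjusted p = 0.0195) and by 0.41 ± 0.13 than in E8w (adjusted p = 0.0246). Its Cy5 signal averaged 5.42 ± 0.46 in E8wMB and 3.78 ± 0.21 in P8w, and its Cy3 signal 5.27 ± 0.21 in E8wMB and 4.21 ± 0.49 in P8w (log2 signal minus the array median, SD, n = 4 each, marked spots kept).

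**Figure D2:**
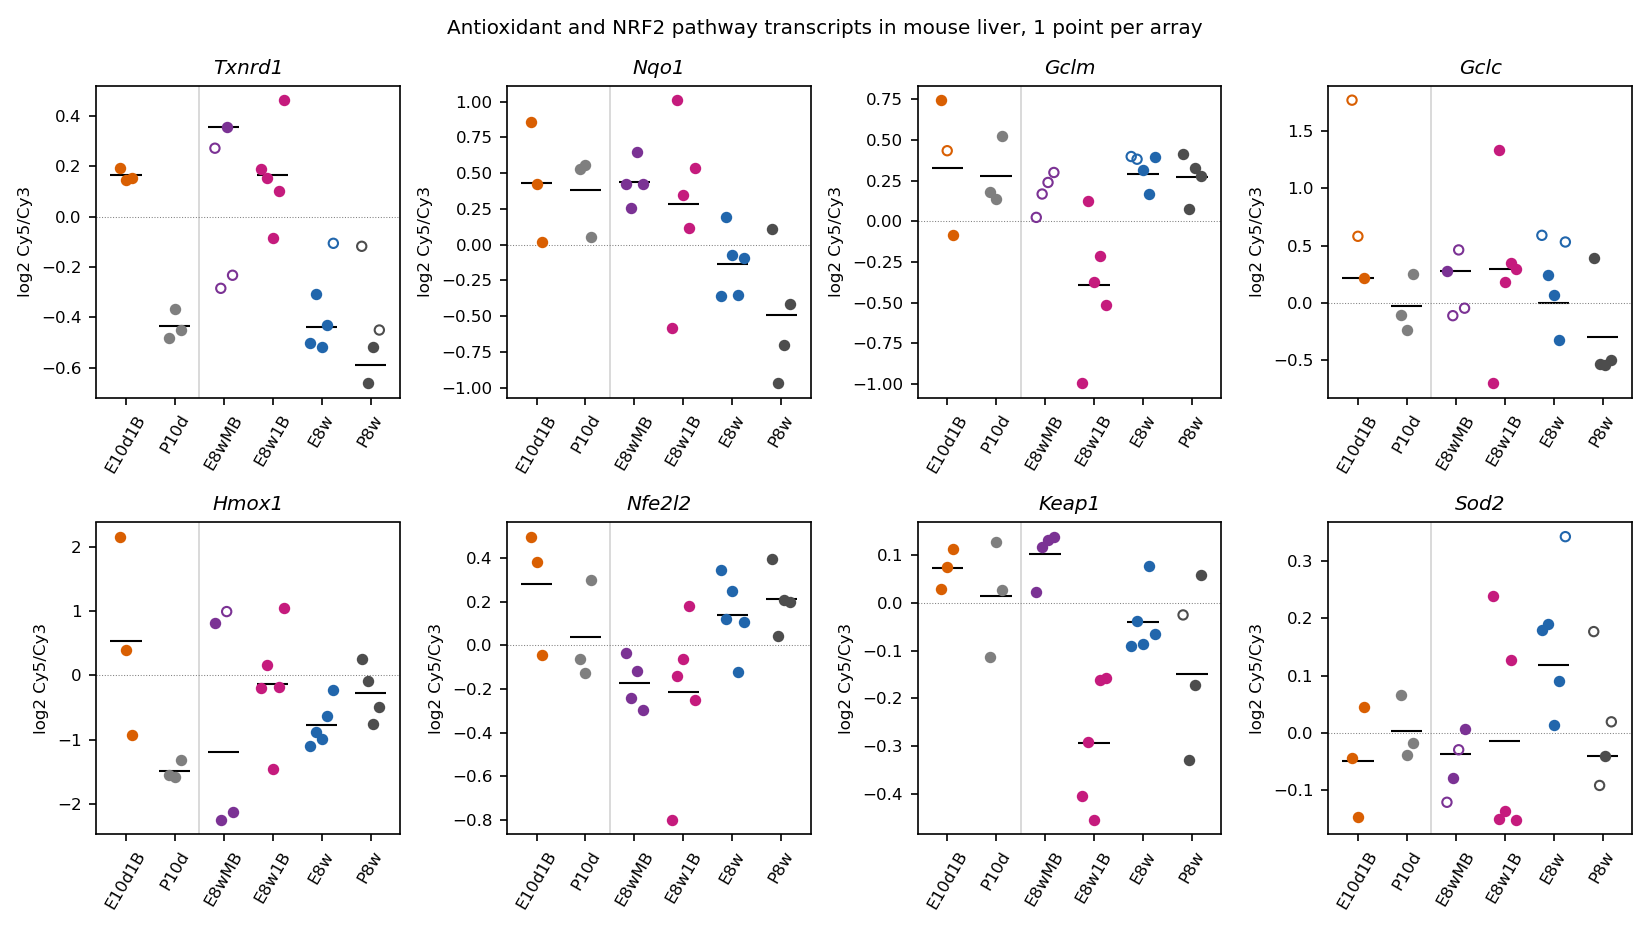
Log2 Cy5/Cy3 (y axis) of 8 genes in the 6 groups (x axis), 1 point per array; open circles are spots that the scanner software marked, and the line is the mean of the unmarked arrays. The Txnrd1 panel shows the E10d1B and E8w1B arrays above their pair-fed controls, and the Hmox1 panel shows E8wMB arrays at -2.24 and -2.13 and also at 0.81.

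Srxn1 encodes sulfiredoxin, which repairs overoxidized peroxiredoxins. It was read by 3 probes for the same accession, and they disagreed. Probe A_52_P593200 read 0.74, 0.65, 0.64, 0.10 and 0.44 in E8w1B (log2 Cy5/Cy3), against -1.40, -1.15, -1.01, -1.19 and -0.25 in E8w and -0.16, -1.42, -1.18 and -1.09 in P8w, with none of these spots marked. All 5 E8w1B arrays lay above all arrays of the controls. With marked spots kept elsewhere on the arrays it rose by 1.51 ± 0.25 against E8w (adjusted p = 0.000189, where 12.4% of all probes changed) and by 1.48 ± 0.27 against P8w (adjusted p = 0.000471, where 12.6% of all probes changed).

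Probe A_52_P297032 gave nearly the same difference, 1.48 ± 0.23 against E8w (adjusted p = 0.000105) and 1.42 ± 0.25 against P8w (adjusted p = 0.00034). For it 4 of the 5 E8w1B spots carried a mark and the values keep them: 1.16, 1.22, 0.65, 0.58 and 0.65 in E8w1B, against -0.55, -0.57, -0.73, -0.94 and -0.37 in E8w and 0.14, -0.64, -0.89 and -0.87 in P8w. Both probes were higher in E8w1B on all 5 slides shared with E8w and on all 4 slides shared with P8w. The third probe, A_51_P330125, is the brightest and stands for the gene in the gene-level counts. It read -0.57, -1.15, -1.09, -1.16 and -0.75 in E8w1B, against -0.73, -0.97 and -0.92 in E8w (unmarked arrays), a difference of -0.07 ± 0.14 (adjusted p = 0.825). It differed from P8w by 0.13 ± 0.16 (adjusted p = 0.665). With the 3 probes averaged the gene rose by 0.79 ± 0.20 against E8w (adjusted p = 0.00713) and by 0.75 ± 0.21 against P8w (adjusted p = 0.0168). The files do not say which part of the transcript each probe reads.

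In E8wMB the 3 Srxn1 probes shared a pattern among the 4 arrays. Probe A_52_P593200 read 0.53 and 0.59 in replicates 1 and 3 and -0.60 and -0.50 in replicates 2 and 4, all on marked spots. Probe A_52_P297032 read 0.69 and 0.90 against -0.45 and -0.56 on the same arrays, and A_51_P330125 read 0.18 and 0.11 against -0.71 and -0.51, marked spots kept. Replicates 1 and 2 shared a slide, and so did replicates 3 and 4, so high and low arrays lay on each slide. With marked spots kept, Srxn1 in E8wMB was higher than in P8w by 0.97 ± 0.28, 0.71 ± 0.26 and 0.82 ± 0.19 for the 3 probes in the same order (adjusted p = 0.0175, 0.057 and 0.00377, where 20.2% of all probes changed). The rises against E8w were 1.00 ± 0.27, 0.78 ± 0.25 and 0.52 ± 0.18 (adjusted p = 0.00794, 0.0234 and 0.036, where 26.1% of all probes changed). Against E8w1B the probes parted: A_51_P330125 was higher in E8wMB by 0.71 ± 0.18 (adjusted p = 0.00492), A_52_P297032 lower by -0.70 ± 0.25 (adjusted p = 0.0353), and A_52_P593200 differed by -0.51 ± 0.27 (adjusted p = 0.157, where 29.4% of all probes changed). The gene-level rises in E8wMB, 1.19 ± 0.19 against P8w, 0.99 ± 0.18 against E8w and 1.06 ± 0.16 against E8w1B (adjusted p = 0.000704, 0.000906 and 0.00021), rest on the 2 unmarked arrays of A_51_P330125, replicates 1 and 3. In the deposited values, which keep all 4 arrays, the difference from E8w was 0.39 and did not pass (adjusted p = 0.113), and with the 3 probes averaged the difference from E8w1B was 0.19 and did not pass (adjusted p = 0.559). On the 2 unmarked arrays the difference from P8w was 2.12 ± 0.45 in Cy5 and 0.71 ± 0.55 in Cy3.

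At 10 days the 2 probes that rose at 8 weeks were higher in E10d1B than in P10d on every array, and neither passed. Probe A_52_P593200 read 0.29, 0.93 and 0.14 in E10d1B, against -0.52, -0.04 and -0.27 in P10d, a difference of 0.73 ± 0.33 with marked spots kept elsewhere (adjusted p = 0.241, where 5.31% of all probes changed). Probe A_52_P297032 differed by 0.57 ± 0.30 (adjusted p = 0.353) and A_51_P330125 by -0.11 ± 0.22 (adjusted p = 0.886).

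**Figure D3:**
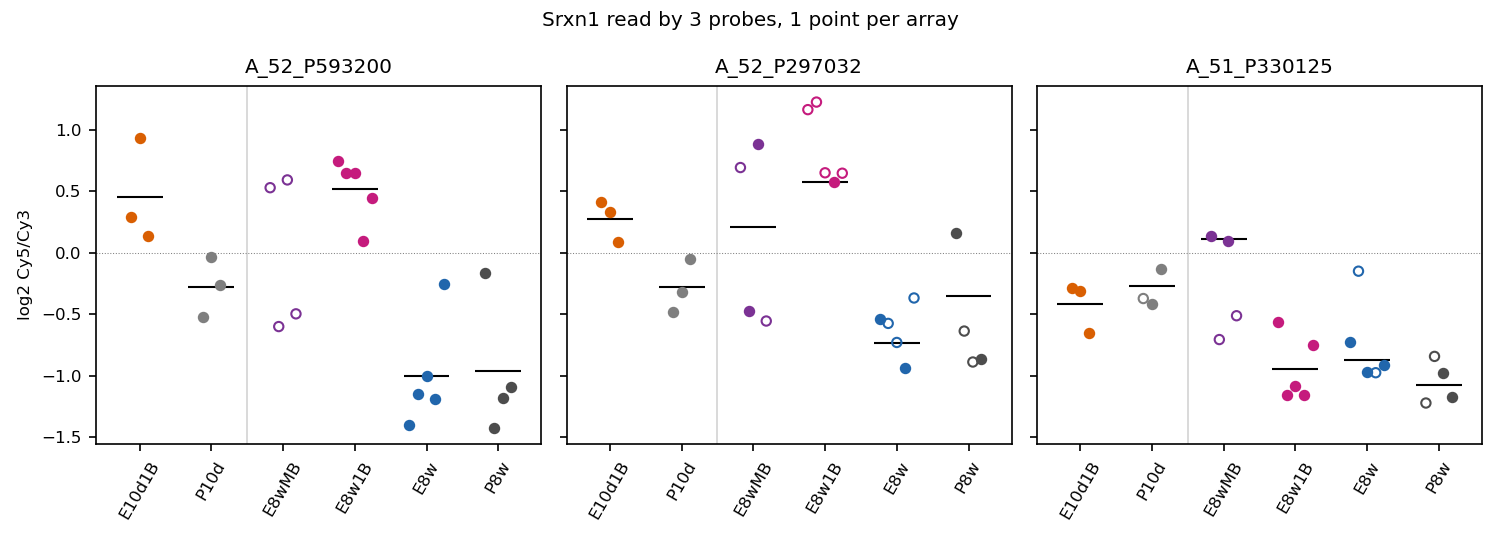
Log2 Cy5/Cy3 (y axis) of Srxn1 by 3 probes (panels) in the 6 groups (x axis), 1 point per array; open circles are marked spots and lines are means of unmarked arrays. In the left panel the E8w1B arrays lie between 0.10 and 0.74, above all E8w and P8w arrays, and in the right panel they do not.

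The subunits of glutamate-cysteine ligase, the rate-limiting enzyme of glutathione synthesis, did not move together. Gclm, the modifier subunit, fell in E8w1B. It read -1.0, 0.13, -0.37, -0.21 and -0.51 there (log2 Cy5/Cy3), against 0.31, 0.17 and 0.40 on the unmarked E8w arrays and 0.41, 0.07, 0.33 and 0.28 in P8w. Every E8w1B array lay below the E8w arrays, and 1 of 5 reached into the P8w range. The fall was -0.68 ± 0.20 against E8w (adjusted p = 0.0276) and -0.67 ± 0.19 against P8w (adjusted p = 0.02). Without E8w1B replicate 1 the fall against E8w was -0.53 (adjusted p = 0.0523). The adjusted p against E8w was also over 0.05 without E8w1B replicate 5 or E8w replicate 3 or 5, and that against P8w without P8w replicate 1 or 3. With median centring neither difference passed (-0.65 against E8w and -0.64 against P8w, adjusted p = 0.202 and 0.163), and with only the groups compared that against E8w did not (-0.68, adjusted p = 0.0523). With marked spots kept the fall was -0.72 ± 0.15 against E8w (adjusted p = 0.00164) and -0.66 ± 0.16 against P8w (adjusted p = 0.00559).

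Gclm at 10 days read 0.74 and -0.08 on the unmarked E10d1B arrays, against 0.18, 0.14 and 0.52 in P10d, a difference of 0.05 ± 0.25 (adjusted p = 0.957). The 8-week difference (E8w1B against P8w) minus the 10-day difference (E10d1B against P10d) was -0.72 ± 0.31 (adjusted p = 0.272). All 4 E8wMB spots of Gclm were marked, at 0.02, 0.17, 0.24 and 0.30, and with them kept Gclm was higher in E8wMB than in E8w1B by 0.58 ± 0.16 (adjusted p = 0.00933). Its Cy5 signal averaged 4.95 ± 0.28 in E8wMB (n = 4) and 2.56 ± 0.54 in E8w1B (n = 5), and its Cy3 signal 4.69 ± 0.25 in E8wMB and 2.95 ± 0.71 in E8w1B (log2 signal minus the array median, SD, marked spots kept).

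Gclc, the catalytic subunit, passed in none of the 3 comparisons in which it could be tested. It read -0.71, 1.33, 0.18, 0.35 and 0.30 in E8w1B, 0.24, 0.06 and -0.33 on the unmarked E8w arrays, and 0.39, -0.54, -0.55 and -0.51 in P8w (log2 Cy5/Cy3). The E8w1B arrays spread over more than the whole range of the other 2 groups. The difference was 0.59 ± 0.30 (adjusted p = 0.218) in E8w1B against P8w, and without E8w1B replicate 1 it was 0.84 and passed (adjusted p = 0.0329). It also passed when slide was fitted as a fixed block (0.84 ± 0.23, adjusted p = 0.0383), but not with slide as a random block. In E10d1B the only unmarked array read 0.22 and the marked spots 1.77 and 0.58, against -0.11, -0.24 and 0.25 in P10d, which with marked spots kept was a difference of 0.91 ± 0.38 (adjusted p = 0.173).

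Slc7a11 encodes the cystine transporter that feeds glutathione synthesis. Its 3 probes passed the background test in Cy5 on 4, 1 and 0 of 24 arrays, so no fold change is given. The Cy3 signal of the brightest of the 3 averaged -2.60 ± 0.34 in E8wMB and -1.12 ± 0.38 in P8w (log2 signal minus the array median, SD, n = 4 each), and its Cy5 signal -1.72 ± 0.28 and -1.19 ± 0.18.

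Nqo1, the NADPH-dependent quinone reductase often used as a readout of NRF2, was higher in the 8-week binge groups than in P8w. It read 0.42, 0.25, 0.65 and 0.43 in E8wMB, -0.58, 1.01, 0.35, 0.12 and 0.53 in E8w1B, -0.36, 0.19, -0.07, -0.35 and -0.10 in E8w, and 0.11, -0.97, -0.70 and -0.41 in P8w (log2 Cy5/Cy3). All E8wMB arrays lay above all E8w and P8w arrays, while E8w1B overlapped P8w through its replicate 1. The rise against P8w was 0.93 ± 0.25 in E8wMB (adjusted p = 0.0113) and 0.78 ± 0.24 in E8w1B (adjusted p = 0.0269). On the slides that held both groups Nqo1 was higher in E8w1B than in P8w on 4 of 4, by 0.01 to 1.98. Without P8w replicate 2 the rise was 0.77 in E8wMB and 0.62 in E8w1B (adjusted p = 0.0544 and 0.113), and the E8w1B call was also lost without P8w replicate 3 or E8w1B replicate 2, 3 or 5 (adjusted p = 0.051 to 0.0838), and with only the groups compared (adjusted p = 0.125). With the log ratio of the scanner software, which lacks the offset added here to dim signals, the same differences were 2.02 ± 0.55 and 1.73 ± 0.52 (adjusted p = 0.0124 and 0.0265).

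Against E8w, Nqo1 differed by 0.57 ± 0.24 in E8wMB (adjusted p = 0.0787) and by 0.42 ± 0.22 in E8w1B (adjusted p = 0.245). The difference between E8w and P8w was 0.36 ± 0.24 (adjusted p = 0.873). At 10 days Nqo1 read 0.85, 0.42 and 0.02 in E10d1B, against 0.53, 0.55 and 0.05 in P10d, and differed by 0.05 ± 0.29 (adjusted p = 0.96). The 8-week difference (E8w1B against P8w) minus the 10-day difference (E10d1B against P10d) was 0.73 ± 0.38 (adjusted p = 0.358). Over the 24 arrays and 13526 genes, the genes whose log2 Cy5/Cy3 followed Nqo1 most closely were Gsta2, a glutathione S-transferase (Pearson r = 0.90), Mogat2, a monoacylglycerol acyltransferase (r = 0.83), and Hjv, which encodes the iron regulator hemojuvelin (r = 0.82). The points share arrays and groups, and these are descriptions of likeness only.

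Hmox1, which encodes heme oxygenase 1, the enzyme that degrades heme, had the largest spread of the members measured in the binge groups, with an SD of 1.55 in E10d1B (n = 3), 1.73 in E8wMB (n = 3) and 0.90 in E8w1B (n = 5). It read 2.15, 0.39 and -0.93 in E10d1B, against -1.55, -1.57 and -1.32 in P10d (log2 Cy5/Cy3). The groups did not overlap, yet the 3 E10d1B arrays spanned far more than the P10d arrays, and the difference of 2.02 ± 0.68 did not pass (adjusted p = 0.0759). Without E10d1B replicate 3 it was 2.75 and passed (adjusted p = 0.0219). On the 2 slides that held both groups it was 0.39 and 1.96. At 8 weeks Hmox1 read 0.81, -2.24 and -2.13 on the unmarked E8wMB arrays and 0.99 on the marked one, -0.20, 0.16, -1.46, -0.18 and 1.04 in E8w1B, -1.09, -0.88, -0.99, -0.63 and -0.23 in E8w, and 0.25, -0.09, -0.75 and -0.50 in P8w. The high E8wMB arrays were replicates 1 and 3, which were also the high ones for Srxn1 and Txnrd1. No 8-week comparison of Hmox1 passed (adjusted p = 0.192 to 0.947). Without E8wMB replicate 1 it was lower in E8wMB by -1.92 than in P8w (adjusted p = 0.0242) and by -2.06 than in E8w1B (adjusted p = 0.00811). These 2 differences rest on the 2 low E8wMB arrays, at -2.24 and -2.13, with both high arrays left out. In Cy5 alone, with replicate 1 kept, Hmox1 was higher in E8wMB than in P8w by 1.34 ± 0.64. P10d lay below P8w in the ratio, and these 2 groups, scanned apart, were not compared.

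Sod2, the manganese superoxide dismutase of mitochondria, is less often counted among direct NRF2 targets and stayed close to the reference. Its unmarked arrays read -0.08 and 0.01 in E8wMB, 0.24, -0.15, -0.14, 0.13 and -0.15 in E8w1B and 0.18, 0.19, 0.01 and 0.09 in E8w, and the 1 unmarked P8w array read -0.04 (log2 Cy5/Cy3). At 10 days it read -0.04, -0.15 and 0.05 in E10d1B and 0.07, -0.04 and -0.02 in P10d. Where tested, the differences lay between -0.15 and -0.02 (adjusted p = 0.354 to 0.906).

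In each channel alone the picture was less sharp within a scan and shifted as a whole in E8wMB. In Cy5 alone, limma called 0 of 9 members in E10d1B against P10d, where it called 1.45% of all genes. It called 0 of 9 in E8w1B against P8w (5.5% of all genes called) and 0 of 10 in E8w1B against E8w (6.22% of all genes called). At an unadjusted p under 0.05 there were 1, 3 and 3 members in the same order. The share of all genes at that looser threshold was not counted in Cy5 alone. The Txnrd1 differences in Cy5 were 0.40 ± 0.28, 0.52 ± 0.28 and 0.40 ± 0.23 in the same order, all above 0, and those in Cy3 -0.11 ± 0.35, -0.30 ± 0.36 and -0.29 ± 0.29. Gclm in E8w1B against P8w differed by -0.75 ± 0.26 in Cy5 and by -0.09 ± 0.31 in Cy3. Nqo1 in the same comparison differed by 0.81 ± 0.27 in Cy5 and by 0.02 ± 0.17 in Cy3. Between E8wMB and P8w, Nqo1 differed by 3.15 ± 0.29 in Cy5 and by 2.20 ± 0.18 in Cy3, and Hmox1 by 1.34 ± 0.64 in Cy5 and by 2.14 ± 0.37 in Cy3. Per the labels Cy3 holds the common reference on all arrays, and what shifted it in E8wMB was not tested.

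**Figure D4:**
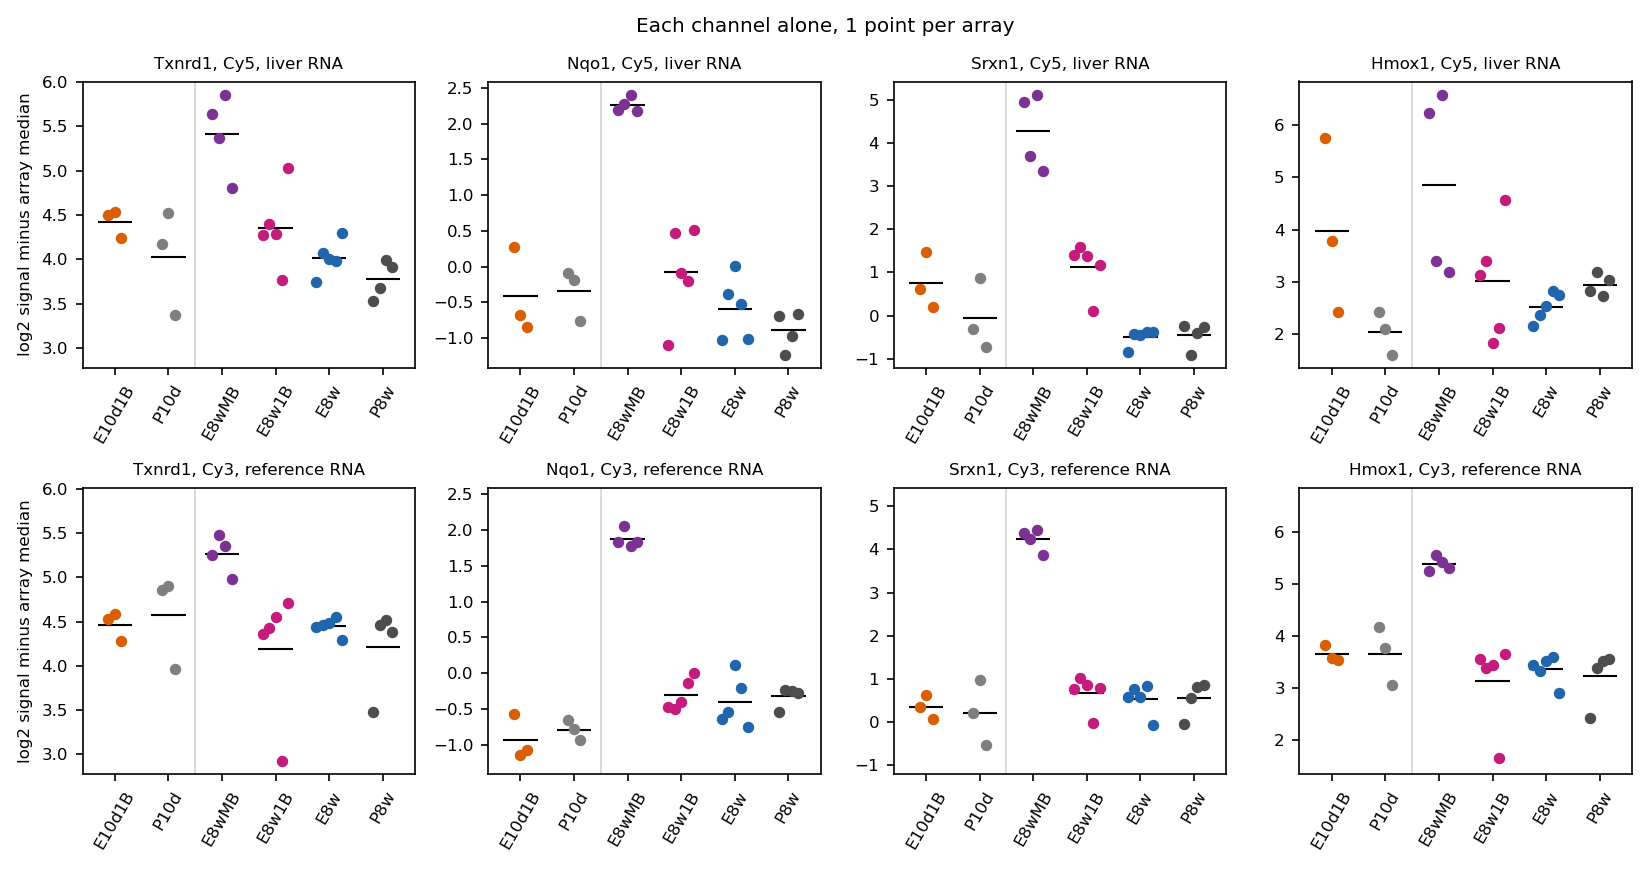
Log2 signal minus the array median (y axis) of Cy5 (upper row) and Cy3 (lower row) for 4 genes in the 6 groups (x axis), 1 point per array with marked spots kept and lines at group means; Srxn1 is probe A_52_P593200. Nqo1 averaged 2.26 in Cy5 and 1.88 in Cy3 in E8wMB, against -0.89 and -0.32 in P8w.

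Genes around the pathway were counted from lists written from general knowledge, with earlier results of these data known. The shares of all genes called, to be set beside each count, were 6.91% in E10d1B against P10d, 15.4% in E8w1B against P8w, 15.5% in E8w1B against E8w and 20.8% in E8wMB against P8w. Of 12 partners and regulators of NRF2, 0 rose and 1 fell in E10d1B against P10d (12 tested), 1 rose and 2 fell in E8w1B against P8w (11 tested), and 1 rose and 0 fell in E8wMB against P8w (11 tested, all genes 20.8%). Mafg, the small MAF partner that NRF2 and its repressors share, fell in both single-binge groups, by -0.66 ± 0.14 in E10d1B against P10d (adjusted p = 0.00368) and by -0.58 ± 0.12 in E8w1B against P8w (adjusted p = 0.0018). Bach2, a repressor of the same elements, rose in E8w1B by 0.64 ± 0.16 (adjusted p = 0.00784) and in E8wMB by 0.49 ± 0.17 (adjusted p = 0.0444) against P8w. In E8wMB its difference was 0.48 in Cy5 and -0.10 in Cy3. Btrc, a subunit of a second ligase that targets NRF2, fell in E8w1B against P8w by -0.33 ± 0.11 (adjusted p = 0.0325).

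Of 18 genes of the glutathione and thioredoxin cycle, 0 rose and 2 fell in E10d1B against P10d (17 tested). In E8w1B 4 rose and 3 fell against P8w (16 tested, list median 0.12 against 0.02 over all genes), and 4 rose and 3 fell against E8w (16 tested). In E8wMB 1 of 14 rose against P8w. Txnrd2, the mitochondrial thioredoxin reductase, fell where Txnrd1 rose: by -0.60 ± 0.18 in E10d1B against P10d (adjusted p = 0.0367) and by -0.76 ± 0.14 in E8w1B against P8w (adjusted p = 0.000701). Glrx, glutaredoxin, rose in E8w1B against P8w by 1.03 ± 0.19 (adjusted p = 0.00068), and so did Prdx3, the mitochondrial peroxiredoxin, by 0.56 ± 0.13 (adjusted p = 0.0078, n = 5 and 2 arrays). Gpx1, the main cytosolic glutathione peroxidase, fell in E8w1B against E8w by -0.83 ± 0.12 (adjusted p = 5.26e-05). Of 7 genes of NADPH supply, 6 were tested and 0 passed in limma in each comparison. In E10d1B against P10d 4 had an unadjusted p under 0.05, as had 3330 of all 17428 genes, and 0 to 2 in the others. The list median was 0.66 in E10d1B against P10d (-0.01 over all genes). Against P8w it was 0.36 in E8w1B, 0.09 in E8wMB and -0.02 in E8w. The lowest adjusted p in E8w1B against E8w was that of Pgd, a dehydrogenase of the pentose phosphate pathway, at 0.88 ± 0.30 (adjusted p = 0.053).

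Of 12 detoxication and export genes known as NRF2 targets, 11 were measured. In E8w1B against P8w 5 of 10 rose and 0 fell (list median 0.35 against 0.02 over all genes), and in E8wMB against P8w 4 of 8 rose and 0 fell (0.83 against -0.01). In E10d1B against P10d 1 of 11 rose. In E8w against P8w, without a binge, 0 of 9 passed in limma, where 0.138% of all genes passed. At an unadjusted p under 0.05 there were 4 of the 9, and 1231 of all 17443 genes. The list median there was 0.37, against 0.01 over all genes. In E8w1B against E8w 3 of 9 rose and 1 fell (list median -0.14 against 0.01, all genes 15.5%). In E8wMB against E8w 3 of 8 rose and 1 fell (list median 0.005 against -0.01, all genes 25.5%). Against P8w, Ephx1, microsomal epoxide hydrolase, rose in E8w1B by 1.63 ± 0.24 (adjusted p = 0.000521, n = 3 and 3 arrays). Abcc4, an exporter of organic anions, rose against P8w by 1.11 ± 0.21 in E8w1B (adjusted p = 0.000559) and by 1.18 ± 0.22 in E8wMB (adjusted p = 0.000835). Htatip2, an oxidoreductase, rose against P8w by 0.80 ± 0.12 in E8w1B and by 0.84 ± 0.14 in E8wMB (adjusted p = 7.41e-05 and 0.000314). In E8wMB against P8w, Abcc4 differed by 2.48 in Cy5 and 1.33 in Cy3, and Htatip2 by 2.58 in Cy5 and 1.66 in Cy3. Osgin1, named for its induction by oxidative stress, rose in E10d1B against P10d by 1.79 ± 0.35 (adjusted p = 0.00247). In E8w1B against E8w it was lower, by -1.56 ± 0.27 (adjusted p = 0.000319). These comparisons have unlike controls, pair-fed in the first and ethanol-fed without a binge in the second, so they are not set against each other. The 8-week difference (E8w1B against P8w) minus the 10-day difference (E10d1B against P10d) passed for Osgin1, at -2.05 ± 0.45 (adjusted p = 0.0115). It also passed for Htatip2 and Ephx1, at 0.80 ± 0.19 and 1.58 ± 0.35 (adjusted p = 0.0184 and 0.0303). Of the 8 members tested for that difference 0 passed in limma, where 3.24% of all genes passed. At an unadjusted p under 0.05 there were 3 of the 8, and 2682 of all 17188 genes.

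Of 10 heme and iron genes, 4 rose and 2 fell in E8w1B against P8w (10 tested) and 4 of 7 rose in E8wMB against P8w. Alas1, the rate-limiting enzyme of heme synthesis in liver, fell by -1.50 ± 0.31 in E10d1B against P10d (adjusted p = 0.00516) and by -1.17 ± 0.32 in E8w1B against P8w (adjusted p = 0.0157, n = 5 and 2 arrays). Hmox2, the constitutive heme oxygenase, rose in E8w1B by 0.55 ± 0.11 (adjusted p = 0.00191), where Hmox1 differed by 0.14 ± 0.55 (adjusted p = 0.906). The ferritin light chain Ftl1 rose by 1.03 ± 0.18 in E8wMB against P8w (adjusted p = 0.000653) and by 0.76 ± 0.21 in E10d1B against P10d (adjusted p = 0.0297). In E8wMB its difference was 0.44 in Cy5 and -0.89 in Cy3.

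Of 10 targets of ATF4, the stress factor that also drives cystine uptake, 4 rose and 0 fell in E8w1B against P8w (10 tested, list median 0.59 against 0.02 over all genes). In E10d1B against P10d 0 of 9 passed in limma and 0 had an unadjusted p under 0.05. Slc3a2, which encodes the heavy chain that SLC7A11 needs at the cell surface, rose in E8w1B by 0.85 ± 0.20 (adjusted p = 0.00559), and Atf4 itself by 0.73 ± 0.15 (adjusted p = 0.00262). Chac1, an enzyme that degrades glutathione, rose in E8w1B against E8w by 1.43 ± 0.37 (adjusted p = 0.00994). Of 10 NF-kB targets 2 rose and 0 fell in E8w1B against P8w (10 tested), a share near the 15.4% of all genes, namely Tnip1 by 0.39 ± 0.10 and the chemokine Cxcl1 by 1.08 ± 0.35 (adjusted p = 0.00965 and 0.0403).

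Some markers of other liver cells were called in the same comparisons, and their part in the results was not tested; in bulk RNA, fewer cells of a type and less RNA per cell cannot be told apart. In E10d1B against P10d the mean log2 Cy5/Cy3 over 7 endothelial markers lay between -0.02 and 0.12 in E10d1B and between -0.50 and -0.28 in P10d, with 2 of 7 higher by the test and 0 lower (all genes 6.91%). The mean over 7 stellate cell markers lay between 0.03 and 0.22 in E10d1B and between -0.31 and -0.03 in P10d, with 2 of 7 higher. The mean over 9 macrophage markers lay between 0.06 and 0.20 in E10d1B and between -0.20 and -0.03 in P10d. Of these 9, 0 were called by limma and 2 had an unadjusted p under 0.05, as had 3330 of all 17428 genes. In E8w1B against P8w, where 15.4% of all genes changed, 2 of 8 macrophage markers fell and 2 of 7 neutrophil markers rose, S100a9 by 1.12 ± 0.20 (adjusted p = 0.000406). The mean over the macrophage markers lay between -0.59 and 0.31 in E8w1B and between -0.14 and 0.49 in P8w, and that over the neutrophil markers between -0.31 and 0.35 in E8w1B and between -0.42 and -0.21 in P8w. Of the endothelial markers 2 rose and 2 fell there, Lyve1 rising by 2.29 ± 0.23 (adjusted p = 8.54e-07). In E8wMB against P8w (all genes 20.8%) 2 of 7 neutrophil markers rose and 3 fell in the ratio. Among those called, Camp differed by 0.37 in Cy5 and 0.88 in Cy3, and Retnlg by 0.45 in Cy5 and 1.31 in Cy3. S100a9 differed by 0.28 in Cy5 and -0.41 in Cy3. The Cy5 signal of these markers was thus not lower in E8wMB, and the channels of the other called markers are not given. Of 6 hepatocyte markers tested in E8w1B against P8w, 0 rose and 1 fell (all genes 15.4%). The 1 that fell was Cyp2e1, the ethanol-oxidizing cytochrome, by -0.57 ± 0.18 (adjusted p = 0.0368). In E10d1B against P10d 1 of 6 rose and 0 fell (all genes 6.91%).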

How the data were processed

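Liver RNA (Cy5) and a common reference RNA (Cy3) were read on 24 Agilent 2-colour arrays in 6 groups. The reference is sold as assorted mouse RNA, while another label calls it liver, so its makeup is uncertain. Per the file headers, the deposited scanner files give intensity for each channel and a log10 ratio of Cy5 over Cy3; Agilent Feature Extraction 11.5.1.1 is named in the submitters' processing notes. The authors' deposited value table follows log2 of that ratio. Array medians of the intensity ran between 95.5 and 247 in Cy5 and between 161.5 and 505 in Cy3.

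Median spot and background signals were corrected by normexp (offset 50) and normalised by loess within each array. Marked spots were left out and replicate spots averaged. The 36648 probes whose Cy5 signal stood well above background on 3 or more arrays were kept, and a gene was read by its brightest probe with 2 or more unmarked arrays in every group, or, where no probe had that, by its brightest kept probe. Each channel alone is log2 of the corrected signal minus the array median. Group means were fitted in limma 3.58.1 (R 4.3.3, statmod 1.5.0) over all 24 arrays, with Benjamini-Hochberg adjustment over all genes tested (at least 2 arrays in each group); the fit was tested on simulated data. Accessions were named from RefSeq: 28006 of 41174 probes had 1 symbol, 104 several and 13064 none here.

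The members and the lists were chosen with earlier results of these data known. The text names all 10 members. From each other list it draws on up to 3 called genes with the lowest adjusted p and 1 not called, per comparison, and for likeness on the 3 genes with the highest Pearson r to each member measured on all arrays and called at least 2 times. Alternatives were median centring, the scanner software's ratio, the deposited values, Cy5 alone, marked spots kept, other probe rules, only the groups compared, slide and replicate blocks, and leaving out each array.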

Additional observations from a re-analysis of the deposited data

Results flagged for a closer look

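Gclc in P8w replicate 1 stood apart from the other arrays of its group. Its log2 Cy5/Cy3 was 0.39, against -0.55 to -0.51 on the other 3 P8w arrays. It was the only such array among 27 gene and group combinations checked, and chance gives about 1 in 20. Without it the difference between E8w1B and P8w was 0.82 ± 0.30 (limma, adjusted p = 0.084), against 0.59 with it.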

How the results depend on the processing

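The number of members called moved with several settings, and the cause was not tested. In E10d1B against P10d the 1 call became 0 with median centring, in the deposited values, in Cy5 alone and with the slide as a fixed block. In E8w1B against P8w the 3 calls became 0 in Cy5 alone, 2 with median centring (Gclm lost) and 2 with only the groups compared (Nqo1 lost), and 4 with slide as a fixed block (Gclc gained), slide as a random block (Nfe2l2 gained) or a gene's probes averaged (Srxn1 gained). In E8w1B against E8w the 3 became 1 with median centring, 0 in Cy5 alone and 1 with only the groups compared. They became 2 with slide as a fixed block (Keap1 lost) and 4 with a gene's probes averaged (Srxn1 gained). In E8wMB against P8w the 2 became 4 with median centring (Nfe2l2 and Slc7a11 gained). They became 3 in the deposited values and with marked spots kept (Txnrd1 gained). They also became 3 in Cy5 alone (Nfe2l2 gained as higher) and with only the groups compared (Nfe2l2 gained as lower). In E8wMB against E8w the 1 became 2 with median centring (Slc7a11 gained), 4 in Cy5 alone, 2 with marked spots kept and 3 with only the groups compared. In E8wMB against E8w1B the 2 became 4 in Cy5 alone and 1 with a gene's probes averaged. They became 3 in the deposited values and with marked spots kept (Gclm gained). The count stayed 2 with median centring, but with Slc7a11 in place of Keap1. In the deposited values the 1 call in E8wMB against E8w was Txnrd1 in place of Srxn1. Leaving out 1 array at a time gave 1 to 2 calls in E10d1B against P10d. It gave 0 to 4 in E8w1B against P8w (0 without P8w replicate 3) and 2 to 4 in E8w1B against E8w. In E8wMB it gave 1 to 2 against P8w, 0 to 1 against E8w (0 without E8wMB replicate 1 or 3) and 1 to 2 against E8w1B. These counts also drop where a called gene is left with 1 unmarked array in a group and is no longer tested. That held for Txnrd1 without P8w replicate 2 or 3, and for Srxn1 without P8w replicate 3 or 4 or E8wMB replicate 1 or 3. Slc7a11, at background and with no direction in the ratio, took 0.74 in E8wMB against P8w with median centring, which is not read as a change. Where a call was made on one side, directions turned for Srxn1 in E8w1B against E8w with its probes averaged (0.79), and in Cy5 alone for Nfe2l2 in E8wMB against P8w (1.05) and against E8w (1.09), Hmox1 in E8wMB against E8w (1.75) and Sod2 in E8wMB against E8w1B (0.94). Leave-one-out values aside, 708 other values of single members stayed on their side of the threshold, 115 called and 593 not called in both, while 24 lost a call and 14 gained one. Of the 593, 52 changed sign, among them Hmox1 in Cy5 alone in E8wMB against P8w (1.34) and against E8w1B (1.27) and Sod2 against E8w (0.55). With the replicate block 2 members were called in E10d1B against P10d and 1 in E8w1B against P8w, where Gclm and Nqo1 lost their call, as Gclm did against E8w, while Hmox1 gained one at 10 days and Keap1 in E8wMB against P8w; the numbers were not taken as a pairing, since same-numbered arrays correlated at -0.252 to 0.353 and 6 of 24 arrays matched their own number best. The slide as a fixed block could not be fitted for E8wMB, whose slides hold no other group. Signals near background limit Slc7a11 and, in part, Nqo1. Over all genes called in E8wMB against P8w, 35.9% were higher, against 50.9% in the scanner software's ratio; in E10d1B against P10d 59.5% were higher, against 72.9% with median centring, and in E8w1B against E8w 48.2%, against 61.6%. Median centring moved the median of all genes in E8wMB against P8w to -0.12.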
